A study of Homo sapiens with 18 samples.

Results

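The genes described here are fibronectin and the matricellular genes FN1, TNC, SPARC, THBS1, THBS2, POSTN, SPP1, FBN1 and SPARCL1 and their messenger RNA levels in NCI-H460 cells, which derive from a human large-cell lung carcinoma and have epithelial morphology. The 9 genes were given as a list, chosen with the levels of earlier results in view, and are 9 of 58051 gene identifiers in the deposited tables. Each had a value under DMSO, and 8 of the 9 had a usable value in all 6 groups. The groups were resistant 1 treated with all-trans retinoic acid (ATRA) and decitabine, resistant 1 with DMSO, resistant 2 with ATRA and decitabine, resistant 2 with DMSO, parental cells with ATRA and decitabine, and parental cells with DMSO. Each group had 3 biological replicates, which makes 18 libraries. Resistant 1 and resistant 2 (#1 and #2 in the labels) are 2 populations of the line resistant to decitabine with ATRA. Whether each is a clone or a pool is not given in the sources used here, and all 3 populations carry the genotype label WT. Treatment was 2 µM ATRA with decitabine, labelled as 50 µM, or DMSO at 0.7% v/v, given 24 h after seeding, and RNA was taken at 72 h.

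Fibronectin is secreted as a dimer and assembled by integrins into fibrils on the cell surface, where it carries cells and other matrix proteins. Matricellular proteins such as the tenascins, thrombospondins, SPARC, periostin and osteopontin are secreted into the matrix but act mainly on adhesion and signalling rather than as scaffold. Most of these genes are typical of mesenchymal cells, and epithelial tumour cells can express them too. Decitabine is a cytidine analogue that traps DNA methyltransferases and lowers methylation at CG sites, and ATRA activates the retinoic acid receptors.

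Levels within a treatment are normalized counts, the reads of a gene divided by a size factor per library, in the authors' tables. Levels across treatments are CPM, recovered reads scaled to library size (TMM) over the 46901 genes with usable values in both tables. The DMSO libraries held 116.9 to 140.9 M recovered reads each, and the treated ones 110.3 to 170.8 M over the restored genes. A gene was called at a Benjamini-Hochberg adjusted p under 0.05 in limma, fitted over all genes. The members were chosen on the levels in resistant and parental libraries, so the comparisons of a resistant with the parental population are given as values without a p, and their counts of calls are a description from which nothing is read. The 6 epithelial markers, 4 of them keratins, summed to 300035 to 436344 normalized counts in resistant 1, 137175 to 205657 in resistant 2 and 223221 to 269431 in parental libraries with DMSO. The keratins KRT8, KRT18 and KRT19 set that sum. EPCAM, an epithelial adhesion molecule, was called lower in both resistant populations, at 3.90 ± 1.89 normalized counts in resistant 1, 3.88 ± 0.605 in resistant 2 and 93.5 ± 8.84 in parental cells with DMSO, and KRT18 was lower in both, at 51024 ± 4385, 53115 ± 5347 and 80345 ± 688. KRT19 was higher in resistant 1 and lower in resistant 2 than in parental cells with DMSO. Its log2 differences were 1.14 ± 0.22 and -1.485 ± 0.222 (SE). Of the 5 epithelial markers tested, 1 was called higher and 2 lower in resistant 1, and 0 higher and 3 lower in resistant 2. Over all genes 29.3% were called higher and 26.6% lower in resistant 1, and 32.1% and 29.8% in resistant 2. The epithelial cadherin CDH1 had 3 reads in all in resistant 1, 3 in resistant 2 and 4 in parental libraries with DMSO. The 10 fibroblast markers summed to 591 to 657 normalized counts in resistant 1, 3620 to 4645 in resistant 2 and 8307 to 10286 in parental libraries with DMSO. That sum was set mainly by COL3A1, a fibrillar collagen, at 28.2 ± 4.48 in resistant 1, 456 ± 86.2 in resistant 2 and 6475 ± 1063 in parental cells. Of the 7 fibroblast markers tested, 1 was called higher and 5 lower in resistant 1, and 3 higher and 3 lower in resistant 2, than in parental cells. FAP, COL1A1 and PDGFRB were the 3 higher in resistant 2, with FAP at 78.4 ± 27.2 in resistant 2 and 0.361 ± 0.625 in parental cells. THY1 had 3 or fewer reads in each resistant population under DMSO, and PDGFRA and FAP in parental cells. The 5 endothelial markers summed to at most 429 and the 6 immune markers to at most 406 normalized counts in any DMSO library. In treated libraries only 4 of 10 fibroblast, 3 of 5 endothelial, 1 of 6 immune and 3 of 6 epithelial markers had usable values, and the 4 fibroblast markers summed to 2456 to 4584 in resistant 1, 1774 to 2223 in resistant 2 and 5019 to 5361 in parental libraries. The part of these markers' levels in the results was not tested. In bulk RNA, fewer cells of a type and less RNA per cell cannot be told apart.

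FN1 had the most reads, among the 46901 genes usable in both tables, in every resistant library and in no parental one. FN1 (ENSG00000115414, chr2:215360440-215436172 on GRCh38, minus strand) encodes fibronectin. With DMSO it had 1438604, 1430066 and 1190962 normalized counts in the resistant 1 libraries, 6230905, 6927291 and 6153016 in resistant 2, and 383919, 348311 and 413658 in parental cells. With ATRA and decitabine it had 1727099, 1580437 and 1347398 in resistant 1, 5674227, 6268815 and 5180659 in resistant 2, and 517569, 444810 and 446509 in parental cells. The 3 populations did not overlap in either treatment, and resistant 2 was the highest in both. The mean in resistant 1 was 3.54 times and that in resistant 2 16.9 times the parental mean under DMSO, and 3.30 and 12.2 times under treatment. Among the 46901 genes usable in both tables, FN1 took 1.05 to 1.25% of reads in resistant 1, 4.78 to 5.41% in resistant 2 and 0.307 to 0.342% in parental libraries with DMSO. With treatment its share was 1.03 to 1.28% in resistant 1, 3.62 to 4.14% in resistant 2 and 0.400 to 0.458% in parental libraries. Its rank was 1 in all 12 resistant libraries, 2 to 3 in treated parental libraries and 8 to 10 in parental libraries with DMSO, where EEF1A1, a translation elongation factor, held the first rank.

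**Figure D1:**
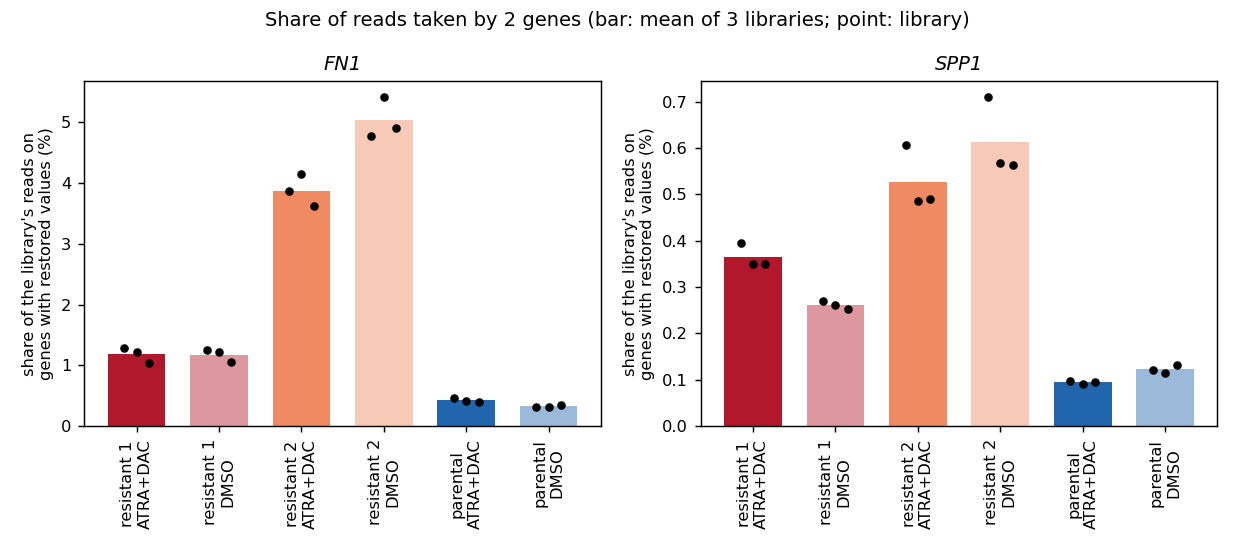
Share of each library's reads, in percent over the genes usable in both tables, taken by FN1 (left) and SPP1 (right) in the 6 groups; bars are means of 3 libraries and points are libraries. FN1 takes 3.62 to 5.41% in resistant 2 and 0.307 to 0.458% in parental libraries.

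The resistant populations differed from each other in FN1. Resistant 1 was lower, with a log2 difference from resistant 2 of -2.25 ± 0.11 with DMSO (SE; limma, adjusted p = 2.71e-08) and -1.88 ± 0.11 with treatment (adjusted p = 3.18e-08), with no overlap of the 3 libraries a side. The treatment response of FN1 was small next to these differences. In CPM it stood at 11067 ± 1142 in treated and 12076 ± 1190 in DMSO libraries of resistant 1 (SD, n = 3), and at 3572 ± 319 and 3461 ± 272 in parental cells, with overlapping libraries and log2 responses of -0.13 ± 0.15 (adjusted p = 0.606) and 0.04 ± 0.15 (adjusted p = 0.819). In resistant 2 FN1 was 40046, 42651 and 36459 CPM with treatment and 54446, 60340 and 54810 CPM with DMSO, a log2 response of -0.51 ± 0.15 (limma, adjusted p = 0.0272). All 3 treated libraries lay below all 3 DMSO libraries. This call was lost with the compared groups alone (adjusted p = 0.863, or 0.646 with the replicate number as a block), and without treated parental replicate 3 (0.0509), resistant 2 DMSO replicate 2 (0.0895) or treated resistant 2 replicate 3 (0.0906). The treated values of resistant 2 replicates 2 and 3 were restored with an added zero, from 544511 and 464803 to 5445110 and 4648030 reads, at a probability of 99.7% for the group. A zero was added likewise to 1 treated parental value each of SPARC (65 to 650 reads in replicate 1), THBS2 (179 to 1790 in replicate 3) and POSTN (36 to 360 in replicate 2), which enter the parental responses of these genes.

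SPP1, which encodes osteopontin, a secreted ligand of integrins and CD44, was the second most abundant member. SPP1 lies at chr4:87975650-87983426, plus strand. With DMSO it had 309539, 307256 and 285536 normalized counts in resistant 1, 923270, 726274 and 705377 in resistant 2, and 145248, 129558 and 159846 in parental cells. With treatment it had 530097, 453160 and 457289 in resistant 1, 889486, 733929 and 701707 in resistant 2, and 109916, 98302 and 106368 in parental cells. The populations again kept one order with no overlap, resistant 2 highest and parental lowest. The means were 2.08 times the parental mean in resistant 1 and 5.42 times in resistant 2 under DMSO, and 4.58 and 7.39 times under treatment. By reads among the genes usable in both tables, SPP1 ranked 15 to 22 in resistant 1, 3 to 6 in resistant 2 and 64 to 77 in parental libraries with DMSO. With treatment its ranks were 5 to 10, 4 to 5 and 80 to 98. Resistant 1 was lower, with a log2 difference from resistant 2 of -1.37 ± 0.12 with DMSO (limma, adjusted p = 2.54e-06) and -0.69 ± 0.10 with treatment (adjusted p = 7.78e-05).

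SPP1 was the member that fell with treatment in parental cells. It stood at 797 ± 45.2 CPM in treated and 1313 ± 128 CPM in DMSO parental libraries (SD, n = 3), a log2 response of -0.72 ± 0.12 (limma, adjusted p = 7.32e-05), with all 3 treated libraries below. In resistant 1 it stood at 3427 ± 252 CPM with treatment and 2685 ± 105 with DMSO, a log2 response of 0.35 ± 0.12 (adjusted p = 0.0433), with all 3 treated libraries above. That call was lost when any of the 6 resistant 1 libraries, any treated parental library or parental DMSO replicate 1 was left out (adjusted p = 0.0541 to 0.146), and without a filter on low values (0.0691). In resistant 2 it stood at 5403 ± 758 CPM with treatment and 6892 ± 1018 with DMSO, with all 3 treated libraries below. Its log2 response of -0.35 ± 0.12 was not called (adjusted p = 0.0584). This response was called with the replicate number as a block (0.0194), by edgeR (0.0192) and with DESeq2 size factors (0.0481). A filter at 50 reads (0.0415) and a pseudocount of 0.1 CPM (0.0374) gave the call too. So did leaving out resistant 2 DMSO replicate 3 (0.0423) or treated resistant 2 replicate 1 (0.0151). The response of resistant 1 exceeded that of parental cells by 1.07 ± 0.17 (adjusted p = 0.000103) and that of resistant 2 by 0.70 ± 0.17 (adjusted p = 0.0253). The second difference was lost without resistant 1 DMSO replicate 2 or 3, treated resistant 1 replicate 1, or treated resistant 2 replicate 2 or 3 (adjusted p = 0.0557 to 0.0692).

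FBN1 encodes fibrillin-1, the main subunit of the microfibrils that carry elastic fibres and hold latent TGF-beta, and lies at chr15:48408306-48645849, minus strand. Under DMSO there were 102896, 113188 and 100884 normalized counts in resistant 1, 104321, 106212 and 99878 in resistant 2, and 3894, 2727 and 3429 in parental cells. Under treatment there were 62261, 59500 and 57144 in resistant 1, 76924, 71778 and 61558 in resistant 2, and 7606, 5988 and 5853 in parental cells. All resistant libraries lay above all parental ones, while the resistant populations overlapped in both treatments. The means were 31.5 and 30.9 times the parental mean under DMSO for resistant 1 and resistant 2, and 9.20 and 10.8 times under treatment. The difference between resistant 1 and resistant 2 was 0.03 ± 0.12 on the log2 scale with DMSO (limma, adjusted p = 0.859) and -0.23 ± 0.11 with treatment (adjusted p = 0.0866). The treated difference was called with the replicate number as a block (limma, adjusted p = 0.0278). It was also called without treated parental replicate 1 (adjusted p = 0.0435) or treated resistant 2 replicate 3 (0.0220).

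FBN1 moved in opposite directions with treatment in resistant and parental cells. It fell to 426 ± 9.48 CPM in treated resistant 1, against 943 ± 51.7 with DMSO (SD, n = 3), a log2 response of -1.14 ± 0.11 (limma, adjusted p = 1.71e-06). It fell to 488 ± 54.8 CPM in treated resistant 2, against 909 ± 17.9 with DMSO, a log2 response of -0.90 ± 0.11 (adjusted p = 3.74e-05). In parental cells it rose to 49.3 ± 7.47 CPM with treatment, against 30.3 ± 5.20 with DMSO, a log2 response of 0.69 ± 0.11 (adjusted p = 5.64e-05). In each population the treated and DMSO libraries did not overlap. The difference of the response from the parental one was -1.83 ± 0.16 for resistant 1 (adjusted p = 1.56e-07) and -1.59 ± 0.16 for resistant 2 (adjusted p = 6.10e-07).

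Per length of exon the order of the most abundant members was not the same as by reads. This length is that of the merged exons of all annotated transcripts of a gene, 17.315 kb for FN1 and 2.321 kb for SPP1. The length of the transcripts present was not measured, so the order holds for this length only. In normalized counts per kilobase, FN1 averaged 78153 ± 8119 and SPP1 129589 ± 5708 in resistant 1 with DMSO (SD, n = 3), so that SPP1 was the higher. In resistant 2 with DMSO, FN1 averaged 371763 ± 24622 and SPP1 338205 ± 51798 normalized counts per kilobase, and in parental cells with DMSO 22060 ± 1890 and 62423 ± 6526. With treatment FN1 averaged 89613 ± 11059, 329651 ± 31467 and 27123 ± 2398 normalized counts per kilobase in resistant 1, resistant 2 and parental cells, and SPP1 206886 ± 18646, 333925 ± 43263 and 45180 ± 2564. FN1 and SPP1 differed by less than their spread in resistant 2 in both treatments, while SPP1 was above FN1 in resistant 1 and parental cells. FBN1 was the third, at 6580 ± 411 per kilobase in resistant 1, 6444 ± 202 in resistant 2 and 209 ± 36.6 in parental cells with DMSO. In treated parental cells it was at 404 ± 60.8, beside 478 ± 43.1 for THBS1, which differed by less than their combined spread. The next place went to SPARC in resistant 1, with 1716 ± 46.1 per kilobase against 1513 ± 63.3 for THBS1, and to THBS1 in resistant 2 (2223 ± 552) and parental cells (57.1 ± 18.5), all with DMSO.

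The other members were much lower, and 5 of them, TNC, SPARC, THBS1, THBS2 and POSTN, rose with treatment in parental cells. The promoters of THBS2, whose parental response was the highest of the members on the log2(CPM + 1) scale (SPARC had the higher ratio of mean CPM, 231 against 186), of SPARC, which rose in resistant 2 as well, of TNC, which had 3 reads in all in parental cells with DMSO, and of SPP1, which fell in parental cells, are shown for comparison. Each is 300 bases from 250 before to 50 after the transcript start in RefSeq (GRCh38.p14), 5′ to 3′ on the gene's strand, with each CG dinucleotide, the site of DNA methylation, in capitals.
THBS2 (chr6:169253797-169254096, minus strand): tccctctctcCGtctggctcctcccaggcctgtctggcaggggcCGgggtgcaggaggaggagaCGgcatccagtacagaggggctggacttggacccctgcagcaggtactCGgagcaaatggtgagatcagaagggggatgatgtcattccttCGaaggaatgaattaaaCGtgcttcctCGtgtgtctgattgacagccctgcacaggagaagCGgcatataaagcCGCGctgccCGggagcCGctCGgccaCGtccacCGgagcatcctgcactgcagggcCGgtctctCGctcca
SPARC (chr5:151686866-151687165, minus strand): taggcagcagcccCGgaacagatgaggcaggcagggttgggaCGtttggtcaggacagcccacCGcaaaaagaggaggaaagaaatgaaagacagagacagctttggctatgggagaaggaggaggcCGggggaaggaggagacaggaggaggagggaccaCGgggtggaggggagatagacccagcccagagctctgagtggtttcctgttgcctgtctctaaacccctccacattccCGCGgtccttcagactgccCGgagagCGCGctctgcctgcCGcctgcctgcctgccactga
TNC (chr9:115118108-115118407, minus strand): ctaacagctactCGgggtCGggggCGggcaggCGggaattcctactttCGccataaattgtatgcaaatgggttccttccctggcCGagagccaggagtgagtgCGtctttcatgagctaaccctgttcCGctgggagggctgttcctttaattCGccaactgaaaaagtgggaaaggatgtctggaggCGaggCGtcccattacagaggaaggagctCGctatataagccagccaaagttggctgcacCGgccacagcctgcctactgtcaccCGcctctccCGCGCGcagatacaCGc
SPP1 (chr4:87975464-87975763, plus strand): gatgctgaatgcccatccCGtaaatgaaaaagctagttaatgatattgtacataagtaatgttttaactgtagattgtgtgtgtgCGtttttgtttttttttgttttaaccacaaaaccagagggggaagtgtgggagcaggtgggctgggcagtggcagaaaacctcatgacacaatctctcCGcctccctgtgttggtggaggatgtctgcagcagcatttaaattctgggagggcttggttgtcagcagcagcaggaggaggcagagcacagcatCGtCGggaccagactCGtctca

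All 9 members matched a promoter. The first promoter listed for each was used, and other start sites of a member were not searched. The members ran from below the lower to above the upper quartile of CG content among the 35116 promoters of the same table. Those promoters had a median of 14 CG dinucleotides with quartiles of 4 and 28. The counts were 38 for FN1, 29 for THBS1, 26 for FBN1, 18 for TNC, 17 for THBS2, 11 for SPARC, 6 for SPP1, 3 for POSTN and 2 for SPARCL1. The 5 members that rose with treatment in parental cells beside FBN1 thus held between 3 and 29, and SPP1, which fell, held 6. The AP-1 motif TGANTCA, searched on both strands, occurred in POSTN alone, and in 7.71% of all promoters. The letters TATAAA, searched on both strands, occurred in THBS2, POSTN and SPARCL1, and in 11.5% of all promoters. The DR5 motif of the retinoic acid receptors, a direct repeat of AGGTCA, was searched on both strands and occurred in none of the 9 windows and in 0.01% of all promoters. DNA methylation was not measured, and its part in any level was not tested.

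**Figure D2:**
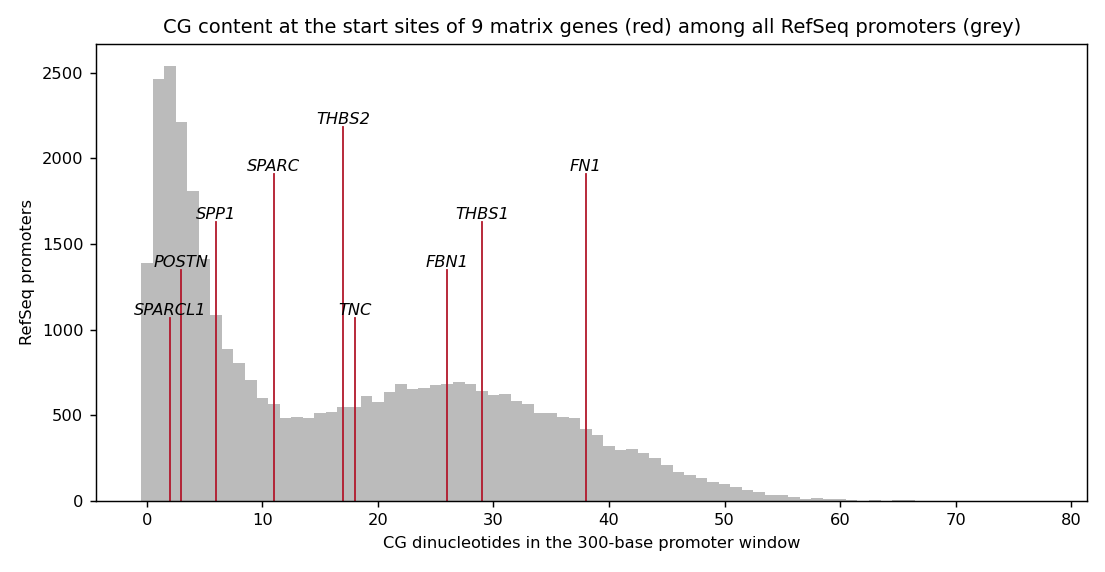
Number of CG dinucleotides (x axis) in the 300-base promoter window of each RefSeq promoter (grey histogram, y axis number of promoters) and of the 9 members (red lines, whose heights only separate the labels). The members run from 2 in SPARCL1 to 38 in FN1, on both sides of the median of 14.

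TNC encodes tenascin C, a large adhesion-modulating glycoprotein of embryonic and wounded tissue, and lies at chr9:115019578-115118257. In the DMSO libraries it had 673, 619 and 913 normalized counts in resistant 1, 1552, 898 and 1010 in resistant 2, and 0, 0.958 and 2.16 in parental cells. In the treated libraries it had 1029, 817 and 1183 in resistant 1, 2031, 1185 and 1274 in resistant 2, and 335, 154 and 136 in parental cells. All resistant libraries lay above all parental ones in both treatments. The ratio of means to parental under DMSO was 706 for resistant 1 (241 to 3430) and 1108 for resistant 2 (379 to 5370), with 95% intervals that cover counting error alone, since the parental libraries held 3 reads in all. Resistant 1 and resistant 2 overlapped with DMSO and did not overlap with treatment. Their difference was -0.63 ± 0.38 on the log2 scale with DMSO (limma, adjusted p = 0.187) and -0.54 ± 0.30 with treatment (adjusted p = 0.144). The first was called when these groups were fitted alone with the replicate number as a block (adjusted p = 0.0472) and by edgeR (0.0426), DESeq2 (0.0148) and a pseudocount of 10 (0.0357). The second was called with the replicate number as a block (limma, adjusted p = 0.0427) and without treated parental replicate 1 (0.0454).

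TNC rose with treatment in parental cells. It stood at 2.55, 1.17 and 1.03 CPM in treated and 0, 0.00874 and 0.0195 CPM in DMSO parental libraries, a log2 response of 1.31 ± 0.24 on the log2(CPM + 1) scale (limma, adjusted p = 0.000142), which understates changes of genes near 0. The ratio of mean CPM was 168 (95% interval 57.4 to 818, counting error alone). In resistant 1 it averaged 7.22 ± 1.40 CPM with treatment and 6.57 ± 1.44 with DMSO (adjusted p = 0.772), and in resistant 2 10.5 ± 3.39 and 10.1 ± 3.03 (adjusted p = 0.973). The difference of the response from the parental one was -1.19 ± 0.34 for resistant 1 (adjusted p = 0.00885) and -1.27 ± 0.34 for resistant 2 (adjusted p = 0.00488). Treated parental cells still had less TNC than any resistant library of either treatment, in CPM. DEC1, on the other strand, shares 129 exon bases with TNC (1.34% of its exons) and had at most 9 reads in any DMSO library.

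THBS1 encodes thrombospondin 1, a trimeric glycoprotein that activates latent TGF-beta and limits angiogenesis, and lies at chr15:39581079-39599466, plus strand. With DMSO it had 13522, 13524 and 14528 normalized counts in resistant 1, 16390, 18633 and 26048 in resistant 2, and 355, 519 and 695 in parental cells. With treatment it had 13495, 15118 and 15964 in resistant 1, 15545, 14937 and 16768 in resistant 2, and 4836, 4124 and 4185 in parental cells. The resistant libraries lay above the parental ones throughout, at 26.5 and 38.9 times the parental mean under DMSO for resistant 1 and resistant 2 and at 3.39 and 3.60 times under treatment. Resistant 1 lay below resistant 2 in every library with DMSO, with a log2 difference of -0.53 ± 0.22 (limma, adjusted p = 0.0670). This difference was called with the replicate number as a block (0.0193), with the compared groups alone (0.0285, or 0.0117 with the block), by DESeq2 (0.0316) and edgeR (0.0468), and without parental DMSO replicate 1 (0.0264) or 3 (0.0299) or resistant 2 DMSO replicate 1 (0.0410). With treatment the resistant populations overlapped (-0.09 ± 0.09, adjusted p = 0.423).

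THBS1 rose to 33.3 ± 3.03 CPM in treated parental cells, against 4.74 ± 1.52 with DMSO (SD, n = 3), a log2 response of 2.61 ± 0.17 (limma, adjusted p = 1.28e-09). In resistant 2 it fell to 110 ± 8.19 CPM with treatment, against 179 ± 46.7 with DMSO, a log2 response of -0.67 ± 0.17 (adjusted p = 0.0112). That call was lost with the compared groups alone (0.0946) and without resistant 2 DMSO replicate 3 (0.0535), the library with 232 CPM. In resistant 1 it averaged 106 ± 11.1 CPM with treatment and 124 ± 5.97 with DMSO, a log2 response of -0.22 ± 0.17 (adjusted p = 0.388), called only when fitted alone with the replicate number as a block (0.0154). The treated libraries lay below the DMSO libraries in both resistant populations and above them in parental cells. The difference of the response from the parental one was -2.83 ± 0.24 for resistant 1 (adjusted p = 1.24e-07) and -3.29 ± 0.24 for resistant 2 (adjusted p = 1.67e-08). FSIP1 and an antisense transcript, AC037198.2, lie on the other strand and share 448 and 411 exon bases with THBS1 (4.89 and 4.49% of its exons). FSIP1 had 72 to 121 reads per DMSO library, next to 361 to 642 THBS1 reads in parental cells, and the antisense transcript had at most 7.

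SPARC encodes a collagen-binding glycoprotein also called osteonectin, and lies at chr5:151661096-151687165. It was the member that set the resistant populations apart in the direction opposite to FN1. Under DMSO there were 8545, 8204 and 8126 normalized counts in resistant 1, 22.6, 24.5 and 35.8 in resistant 2, and 2.95, 0 and 3.25 in parental cells. Under treatment there were 13161, 11790 and 13166 in resistant 1, 488, 571 and 824 in resistant 2, and 564, 590 and 547 in parental cells. Resistant 1 was far above the other populations in both treatments, and treated resistant 2 and treated parental libraries overlapped. Resistant 1 exceeded resistant 2 by 8.21 ± 0.46 on the log2 scale with DMSO (limma, adjusted p = 9.80e-08) and by 4.37 ± 0.16 with treatment (adjusted p = 5.19e-10), which is 299.9 and 20.3 times in ratio of means. Under DMSO the mean of resistant 2 was 13.4 times the parental one, and under treatment 1.11 times.

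SPARC rose with treatment in resistant 2 and in parental cells. In resistant 2 it stood at 3.44, 3.89 and 5.80 CPM with treatment and 0.197, 0.214 and 0.319 CPM with DMSO, a log2 response of 2.09 ± 0.12 (limma, adjusted p = 6.79e-09). In parental cells it stood at 4.29, 4.49 and 4.15 CPM with treatment and 0.0267, 0 and 0.0292 CPM with DMSO, a log2 response of 2.38 ± 0.12 (adjusted p = 3.93e-11). In resistant 1 it averaged 90.8 ± 6.14 CPM with treatment and 74.0 ± 2.05 with DMSO, a log2 response of 0.29 ± 0.12 (adjusted p = 0.0878). All 3 treated resistant 1 libraries lay above the 3 with DMSO, and the response was called when fitted alone with the replicate number as a block (0.00451) and without treated resistant 2 replicate 3 (0.0144). The response of resistant 1 differed from that of parental cells by -2.09 ± 0.17 (adjusted p = 5.76e-08) and from that of resistant 2 by -1.80 ± 0.17 (adjusted p = 6.56e-06). The response of resistant 2 differed from that of parental cells by -0.29 ± 0.17 (adjusted p = 0.165). This last value hangs on the scale near 0: it was -1.54 with a pseudocount of 0.1 CPM (adjusted p = 4.21e-05), -3.72 in edgeR (3.47e-05) and -0.47 without treated resistant 2 replicate 3 (0.00408). The antisense gene CLMAT3 shares 381 exon bases with SPARC (7.89% of its exons). It had 10 to 30 reads per resistant 2 library with DMSO, where SPARC itself had 22 to 33. The part of the shared bases in these SPARC values, the base of its resistant 2 response, was not tested. CLMAT3 had 19 to 41 reads in treated resistant 2 and 0 in parental cells with DMSO.

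THBS2 encodes thrombospondin 2, the paralogue of THBS1 that regulates collagen fibrils and angiogenesis, and lies at chr6:169215780-169254044. Its mean exceeded 1 CPM in treated parental cells alone among the 6 groups. In the DMSO libraries it had 6.94, 3.64 and 11.6 normalized counts in resistant 1, 19.5, 18.1 and 25 in resistant 2, and 5.91, 7.66 and 5.41 in parental cells. In the treated libraries it had 20.9, 29 and 51.3 in resistant 1, 23.9, 17.3 and 17.8 in resistant 2, and 1283, 1540 and 1394 in parental cells. The treated resistant means were 0.0240 and 0.0140 times the treated parental mean for resistant 1 and resistant 2. In parental cells it rose to 10.7 ± 0.981 CPM with treatment, against 0.0574 ± 0.0111 with DMSO (SD, n = 3), 186 times in ratio of means and 3.46 ± 0.06 on the log2(CPM + 1) scale (limma, adjusted p = 1.84e-16).

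In resistant 1 THBS2 rose within a low range, to 0.242 ± 0.118 CPM with treatment, against 0.0662 ± 0.0362 with DMSO, a log2 response of 0.22 ± 0.06 (limma, adjusted p = 0.0180). That call was lost with the compared groups alone (0.0547) and without resistant 1 DMSO replicate 1 (0.0530) or 2 (0.0725) or treated resistant 1 replicate 3 (0.1), which held 67 of the 112 reads of its group. In resistant 2 it averaged 0.137 ± 0.0276 CPM with treatment and 0.184 ± 0.0342 with DMSO (adjusted p = 0.648). The difference of the response from the parental one was -3.25 ± 0.09 for resistant 1 (adjusted p = 1.02e-13) and -3.52 ± 0.09 for resistant 2 (adjusted p = 3.47e-14). With DMSO resistant 1 was lower, with a log2 difference from resistant 2 of -1.49 ± 0.38 (adjusted p = 0.00632), at 24 and 59 reads in all. With treatment the difference was 0.67 ± 0.27 (adjusted p = 0.0534), called by DESeq2 (0.00929) and edgeR (0.0477) and without replicate 1 of treated resistant 1 (0.00787) or of treated resistant 2 (0.0388).

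**Figure D3:**
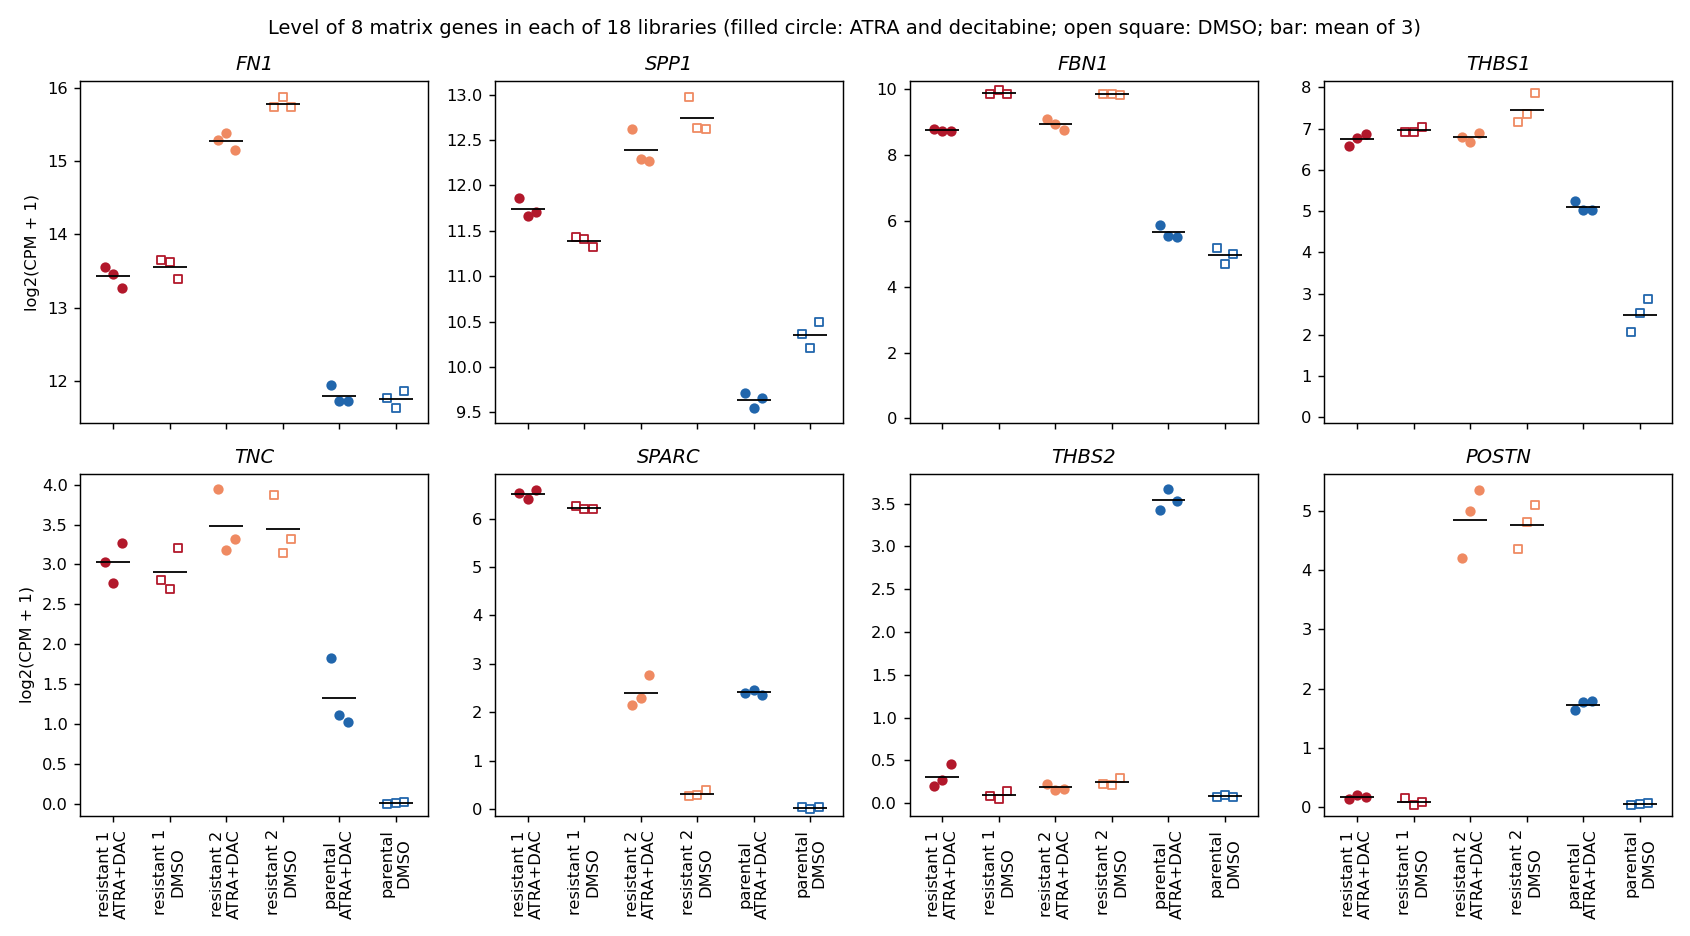
Level of 8 members as log2(CPM + 1) (y axis, own scale in each panel) in each of 18 libraries, by group; filled circles are ATRA and decitabine, open squares are DMSO and bars are means of 3. THBS2 stands out in treated parental libraries, SPARC in resistant 1 and POSTN in resistant 2.

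POSTN encodes periostin, a secreted matrix protein that binds integrins and collagen, and lies at chr13:37562583-37598844. It was high in resistant 2 and low in resistant 1 in both treatments. With DMSO it had 13, 2.73 and 6.76 normalized counts in resistant 1, 2225, 3117 and 3717 in resistant 2, and 2.95, 3.83 and 5.41 in parental cells. With treatment it had 14.3, 21.2 and 16.8 in resistant 1, 2466, 4529 and 5679 in resistant 2, and 277, 318 and 322 in parental cells. Libraries of resistant 1 and parental cells overlapped under DMSO, where the mean of resistant 2 was 743 times the parental one. The log2 difference of resistant 1 from resistant 2 was -8.64 ± 0.43 with DMSO (limma, adjusted p = 3.61e-08) and -7.77 ± 0.26 with treatment (adjusted p = 2.92e-10). In parental cells POSTN rose to 2.32 ± 0.189 CPM with treatment, against 0.0368 ± 0.0111 with DMSO (SD, n = 3), a log2 response of 1.68 ± 0.21 (adjusted p = 3.12e-06). In resistant 1 it averaged 0.125 ± 0.0255 CPM with treatment and 0.0671 ± 0.0464 with DMSO (adjusted p = 0.849), and in resistant 2 29.4 ± 11.3 and 26.6 ± 6.85 (adjusted p = 0.868). The difference of the response from the parental one was -1.60 ± 0.30 for resistant 1 (adjusted p = 0.000394) and -1.58 ± 0.30 for resistant 2 (adjusted p = 0.000363). Treated parental cells thus held more POSTN than resistant 1 and less than resistant 2 in either treatment.

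SPARCL1 encodes a SPARC-like glycoprotein, also called hevin, and lies at chr4:87473335-87531061. Under DMSO there were 11.3, 7.28 and 2.90 normalized counts in resistant 1, 95.5, 303 and 387 in resistant 2, and 0.985, 8.62 and 10.8 in parental cells. Resistant 1 was lower, with a log2 difference from resistant 2 of -4.94 ± 0.72 (limma, adjusted p = 0.000168) and no overlap, and resistant 1 overlapped with parental cells. Under treatment there were 25.3, 34.5 and 20.7 in resistant 1, 226 and 288 in resistant 2 replicates 2 and 3, and 20.8, 23.0 and 17.1 in parental cells. The value of treated resistant 2 replicate 1 could be 46 or 460 reads, that is 61.1 or 611 normalized counts, so SPARCL1 was not tested under treatment or for a response.

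Within resistant 2, replicate 1 stood apart from replicates 2 and 3 in the same way in both treatments for several members. It was the highest for TNC (2031 normalized counts with treatment, against 1185 and 1274 in the others, and 1552 with DMSO, against 898 and 1010) and for SPP1. It was the lowest for POSTN, at 2466 normalized counts with treatment and 2225 with DMSO. For SPARC, replicate 1 was the lowest too, at 488 with treatment and 22.6 with DMSO. There it did not stand apart, since replicate 2 was near it, at 571 and 24.5. For SPARCL1, replicate 1 was the lowest with DMSO.

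Resistant 1 and resistant 2 were compared directly over the members. With DMSO, 1 of 9 was higher in resistant 1 (SPARC) and 5 were lower (FN1, THBS2, POSTN, SPP1 and SPARCL1), or 6 in all, where 53.4% of 21643 genes were called, 27.4% higher and 26% lower. With treatment, 1 of 8 was higher (SPARC) and 3 were lower (FN1, POSTN and SPP1), where 59.9% of 17727 genes were called, 30% higher and 30% lower. The median log2 difference over members was -1.37 with DMSO and -0.38 with treatment, beside 0.02 and -0.00495 over all genes tested. Against parental cells, 6 of 9 members were called higher in resistant 1 and 9 of 9 in resistant 2 with DMSO, where 55.9% (29.3% higher) and 61.9% (32.1% higher) of genes were called. With treatment 6 of 8 were called higher and 2 lower (THBS2 and POSTN) in resistant 1, and 6 higher and 1 lower (THBS2) in resistant 2, where 68.6% (36.4% higher, 32.1% lower) and 73.8% (39.7% higher, 34.1% lower) of genes were called. The counts against parental cells rest on the contrasts on which the members were chosen, so they test nothing.

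The responses to treatment differed between the populations for most members. Of the 8 members tested, 7 were called in parental cells, 6 higher and SPP1 lower, where 65.9% of 18148 genes were called, 33.5% higher and 32.4% lower. In resistant 1, 3 were called, THBS2 and SPP1 higher and FBN1 lower, where 27.1% of genes were called, 14.5% higher and 12.6% lower. Fitted with these groups alone and the replicate number as a block, 5 were called in resistant 1, SPARC higher and THBS1 lower in addition. In resistant 2, 4 were called, SPARC higher and FN1, THBS1 and FBN1 lower, where 18.2% of genes were called, 10% higher and 8.16% lower. The median log2 response was 0.10 in resistant 1, -0.20 in resistant 2 and 1.50 in parental cells, beside -0.000115, 0 and 0.00206 over all genes.

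**Figure D4:**
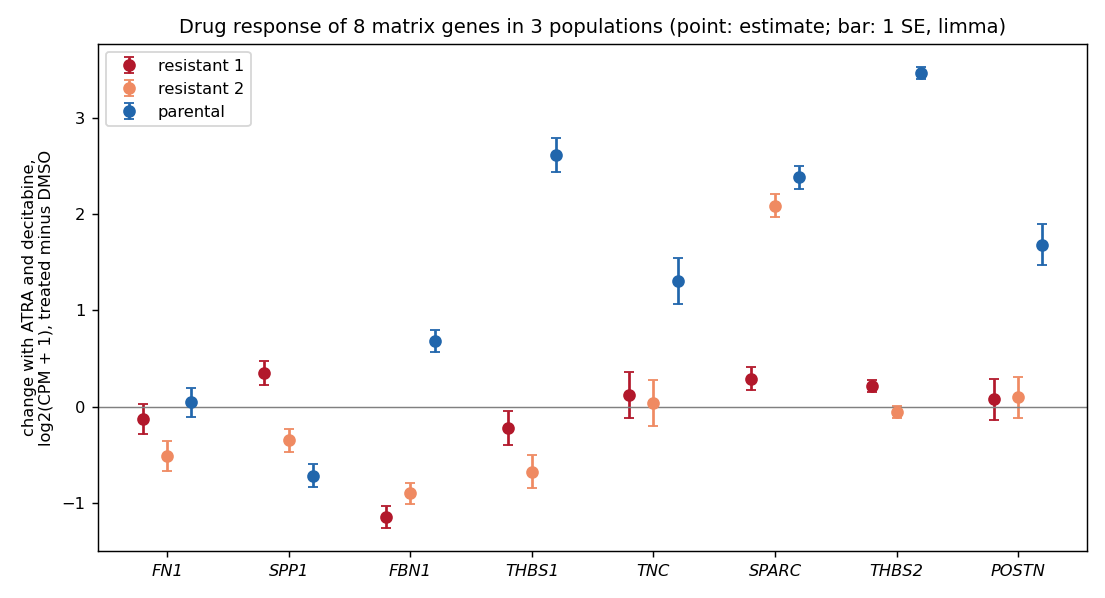
Log2(CPM + 1) response to ATRA and decitabine (treated minus DMSO, y axis) of 8 members in resistant 1, resistant 2 and parental cells; points are limma estimates and bars 1 SE. THBS2, THBS1, TNC and POSTN respond by 1.31 to 3.46 in parental cells and by -0.67 to 0.22 in the resistant populations.

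The difference of responses was called for 7 of 8 members between resistant 1 and parental cells, 6 with a lower response in resistant 1 and SPP1 with a higher one, where 45.5% of genes were called, 24.3% lower and 21.2% higher. Between resistant 2 and parental cells 6 of 8 were called, all with a lower response in resistant 2, where 50.8% of genes were called, 26.7% lower. Between resistant 1 and resistant 2, SPARC (lower) and SPP1 (higher) were called, where 5.07% of genes were called, 1.76% lower and 3.31% higher. The THBS2 difference of 0.27 ± 0.09 was not called (adjusted p = 0.104), but its value hangs on the scale near 0 too, at 1.27 with a pseudocount of 0.1 CPM (0.0133) and 2.36 in edgeR (0.0142), and it was called without treated resistant 1 replicate 1 (0.0467). For FN1, the response of resistant 2 differed from that of parental cells by -0.56 ± 0.22 (limma, adjusted p = 0.0412). That call was lost when parental DMSO replicate 1 or 2, any treated parental library, resistant 1 replicate 2 of either treatment, resistant 2 DMSO replicate 2 or treated resistant 2 replicate 3 was left out (adjusted p = 0.0534 to 0.125). The response comparisons share the DMSO and treated libraries of each population, so they are not independent of each other.

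The receptors and assembly factors of fibronectin were read from a list of 16 genes of integrin chains, syndecans, adaptors and crosslinking factors. With DMSO 15 were tested, of which 12 were called higher and 1 lower in resistant 1 than in parental cells, where 29.3% and 26.6% of genes were called, and 13 and 1 in resistant 2, where 32.1% and 29.8% were called. The median log2 difference was 0.90 in resistant 1 and 1.66 in resistant 2, beside 0.01 and 0.02 over all genes. ITGB3, the beta chain of the vitronectin receptor that also binds fibronectin and osteopontin, averaged 127 ± 11.6 normalized counts in resistant 1, 558 ± 248 in resistant 2 and 5.41 ± 1.40 in parental cells. ITGA4, an alpha chain of a fibronectin receptor, averaged 201 ± 19.3 in resistant 1, 204 ± 24.2 in resistant 2 and 12.7 ± 3.50 in parental cells. SDC2, a heparan sulfate proteoglycan, averaged 5630 ± 360 in resistant 1, 19839 ± 3203 in resistant 2 and 1091 ± 78.5 in parental cells. Between the resistant populations 0 genes of the list were called higher and 8 lower in resistant 1 with DMSO, where 27.4% and 26% of all genes were called. With treatment 13 were tested, without ITGB3 and ITGA4, which had no usable values. Of these, 8 were called higher and 5 lower in resistant 1 than in parental cells, where 36.4% and 32.1% of genes were called. In resistant 2 they were 11 and 2, where 39.7% and 34.1% were called. Between the treated resistant populations 0 were higher and 9 lower in resistant 1, where 30% and 30% of genes were called.

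In the response, 9 of 13 genes of this list were called higher and 2 lower in parental cells, where 33.5% and 32.4% of genes were called. In resistant 1, 4 were higher and 3 lower, where 14.5% and 12.6% of genes were, and in resistant 2, 4 and 5, where 10% and 8.16% were. TGM2, a transglutaminase that crosslinks fibronectin and a known retinoid target, rose in each population. It averaged 95.9 ± 19.2 CPM with treatment and 5.28 ± 1.63 with DMSO in resistant 1, 1196 ± 141 and 174 ± 38.3 in resistant 2, and 206 ± 6.23 and 6.61 ± 1.72 in parental cells. Its log2 response was 3.96 ± 0.21 in resistant 1 (limma, adjusted p = 1.36e-09), 2.79 ± 0.21 in resistant 2 (1.54e-07) and 4.79 ± 0.21 in parental cells (5.70e-12). Differences from the parental response were -0.83 ± 0.29 for resistant 1 (adjusted p = 0.0298) and -2.0 ± 0.29 for resistant 2 (adjusted p = 3.08e-05).

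The relatives of the members had patterns of their own. Of 8 other tenascins, thrombospondins and thrombospondin receptors 5 were tested, and with DMSO 3 were called higher and 1 lower in resistant 1 (29.3% and 26.6% of all genes), and 1 and 0 in resistant 2 (32.1% and 29.8%), than in parental cells. THBS4, another thrombospondin, averaged 768.5 ± 196 normalized counts in resistant 1, 195 ± 62.6 in resistant 2 and 65.4 ± 11.4 in parental cells with DMSO. CD36, a receptor of thrombospondins, rose with treatment in parental cells, to 4.52 ± 0.176 CPM against 0.589 ± 0.0603 with DMSO (limma, adjusted p = 2.83e-14). It averaged 0.290 ± 0.0153 CPM with treatment and 0.190 ± 0.0630 with DMSO in resistant 1, and 0.753 ± 0.0404 and 0.860 ± 0.0998 in resistant 2. The differences of its response from the parental one were -1.68 ± 0.07 for resistant 1 (adjusted p = 2.23e-11) and -1.88 ± 0.07 for resistant 2 (adjusted p = 4.49e-12), the same direction as for THBS1 and THBS2.

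Of the 6 other SPARC family genes, 5 were called higher and 1 lower in resistant 1, and 4 and 1 in resistant 2, than in parental cells with DMSO, beside 29.3% and 26.6% of all genes in resistant 1 and 32.1% and 29.8% in resistant 2. FSTL1, a secreted SPARC relative, averaged 139213 ± 5989 normalized counts in resistant 1, 133030 ± 6179 in resistant 2 and 19393 ± 2771 in parental cells, at like levels in the resistant populations where SPARC differed. SPOCK2, a proteoglycan of the family, rose to 22.9 ± 0.272 CPM in treated parental cells, against 2.06 ± 0.409 with DMSO, a log2 response of 2.98 ± 0.14 (limma, adjusted p = 1.17e-11). Among the relatives and the receptor of osteopontin, TGFBI, a periostin-related adhesion protein, averaged 264376 ± 20287 normalized counts in resistant 1, 757174 ± 37656 in resistant 2 and 170042 ± 11493 in parental cells with DMSO. CD44, a receptor of osteopontin and hyaluronan, averaged 43732 ± 2980 in resistant 1, 26693 ± 4447 in resistant 2 and 12176 ± 683 in parental cells. Both were called higher in each resistant population, and the other 4 genes of that list were below the filter with DMSO.

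Of 6 CCN family genes, which are matricellular too, 5 were tested with DMSO, with 3 called higher and 1 lower in resistant 1, where 29.3% and 26.6% of all genes were, and 4 and 0 in resistant 2, where 32.1% and 29.8% were, than in parental cells. CCN5 averaged 7282 ± 1356 normalized counts in resistant 1, 6983 ± 1203 in resistant 2 and 322 ± 31.5 in parental cells. CCN3 was the one CCN gene tested under treatment. Its response was lower in both resistant populations than in parental cells, as that of THBS1 was. It averaged 6.40 ± 0.620 CPM with treatment and 18.6 ± 4.03 with DMSO in resistant 1, 6.12 ± 2.77 and 7.48 ± 4.14 in resistant 2, and 19.8 ± 1.48 and 0.972 ± 0.238 in parental cells. The differences from the parental response were -4.79 ± 0.41 for resistant 1 (limma, adjusted p = 1.05e-07) and -3.62 ± 0.41 for resistant 2 (adjusted p = 2.03e-06).

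Of 17 other fibrillins and microfibril proteins, 13 were tested with DMSO, with 5 called higher and 3 lower in resistant 1, and 8 and 1 in resistant 2, than in parental cells. Over all genes 29.3% were higher and 26.6% lower in resistant 1, near the shares of the list, and 32.1% and 29.8% in resistant 2. FBN2, the fibrillin of developing tissue, averaged 277198 ± 17852 normalized counts in resistant 1, 13414 ± 2364 in resistant 2 and 5112 ± 514 in parental cells, so that it set resistant 1 apart where FBN1 was alike in both. Its response had the signs of FBN1 in resistant 1 and parental cells, at -1.22 ± 0.12 (limma, adjusted p = 1.16e-06) and 1.32 ± 0.12 (adjusted p = 4.59e-08). The likeness did not extend to resistant 2. The FBN2 response of resistant 1 differed from that of resistant 2 by -1.34 ± 0.17 (limma, adjusted p = 0.000107). For FBN1 this difference was -0.24 ± 0.16 and not called (adjusted p = 0.546). LTBP1, which ties latent TGF-beta to fibrillin, averaged 2858 ± 70.2 normalized counts in resistant 1, 12449 ± 903 in resistant 2 and 525 ± 54.4 in parental cells with DMSO. MFAP2, a microfibril glycoprotein, had 1 read in resistant 1, 0 in resistant 2 and 130 in parental cells over 3 libraries each.

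For 4 members the genes with the most similar pattern over the 6 groups were sought among 12553 genes with a mean of at least 1 CPM, by the root mean square difference of centred group means of log2(CPM + 1). The closest to FN1 were NECTIN3, an adhesion molecule (0.187), PMEPA1, an inhibitor of TGF-beta signalling (0.213), and CD33, a sialic acid-binding lectin (0.236). The closest to TNC were SVEP1, a large matrix adhesion protein (0.0495), HLA-B (0.146) and TTC9 (0.160). The closest to THBS1 were BMPER, a secreted BMP modulator (0.316), CADM1, an adhesion molecule (0.360), and NRP1, a co-receptor of semaphorins and VEGF (0.384). SPARC had none as close, with SSX1 (0.750), PASD1 (0.787) and VCX3B (0.803), all cancer-testis genes on the X chromosome. SSX1, VCX3B and HLA-B have near-identical relatives among which reads could be split, so their values are uncertain.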

How the data were processed

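Messenger RNA of 18 libraries was sequenced from TruSeq stranded libraries, per the labels' protocols. FastQC, MultiQC, STAR, featureCounts and DESeq2 with GRCh38 (hg38) are named in the submitters' processing notes, while no version or strand setting is stated there. The authors deposited 2 tables of normalized counts, one per treatment, each normalized over its own 9 libraries. In the DMSO table the deposited values are a signal, gene counts divided by a size factor, and whole reads were recovered from them within a tolerance of 0.01. In the deposited table for ATRA with decitabine the decimal points were lost, so its other values were restored. A negative binomial model was applied to the 3 treated libraries of each population, informed by that population's DMSO levels. It chose the power of 10 for each value. A gene was used where the product of the probabilities of the 3 populations was at least 99%. Of 25147 genes at the filter 17727 were restored (70.5%) and 7420 left out, among them SPARCL1. The share restored was 39.0% of genes at means of 10 to 30 and 92.2% of the most abundant genes. With decimal points removed from the DMSO table, 8 of 14332 genes were restored wrongly. Without the DMSO levels 16186 genes were restored both ways, and 0 of them differed.

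Within a table, limma-trend was fitted to log2(normalized count + 1) for genes with at least 10 in at least 3 of 9 libraries. Across treatments it was fitted to log2(CPM + 1) with TMM scaling over 18 libraries (R 4.3.3, limma 3.58.1, edgeR 4.0.16), for 12 comparisons in all, with Benjamini-Hochberg adjustment over all genes. Every adjusted p is from limma unless another tool is named. DESeq2 1.42.0 and edgeR on reads, other pseudocounts, filters and scalings, and fits without each library were tried. Tested on simulated data, the fit of resistant 1 against resistant 2 with DMSO found 74% of 2-fold changes among 21124 genes with 6.63% false calls. The parental response fit found 90% among 17391 genes with 5.95% false calls. The simulation changed few genes, left genes at low levels unchanged and drew each library independently. These rates therefore do not carry over to the calls made here. Intervals cover counting error only. The limma p-values rest on the spread between the 3 replicates within groups. That spread was pooled over all groups in a fit and drawn towards that of genes of like level. Replicates differed by more than sampling noise (the chi-square statistic was 9.32 to 210 times its degrees of freedom).

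Libraries of one replicate number deviated together between resistant 1 and resistant 2 with DMSO (r 0.195 to 0.656) and between treated and DMSO libraries of resistant 1 (0.416 to 0.889) and of resistant 2 (0.767 to 0.873), so the numbers pair these groups. For parental cells r was mixed in sign (-0.257 to 0.498). Between the treated resistant groups it was 0.00373 to 0.455, which overlaps the range between these populations with DMSO. No cutoff on r was set, so whether the numbers pair these last groups was not settled. The members and gene lists were chosen with earlier results of these data known. The 6 lists of related genes and the cell type markers held 86 genes in all. Examples from each related list are called genes with the largest changes, at a mean of at least 10 normalized counts or 1 CPM. Names come from a table that matched 56948 of 58051 identifiers, and positions and exon lengths from GENCODE 29.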

Additional observations from a re-analysis of the deposited data

Results flagged for a closer look

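The responses to ATRA and decitabine differed between populations for several members, each by the test of the difference itself (log2(CPM + 1), limma). Between resistant 1 and parental cells the difference was -1.19 for TNC, -2.09 for SPARC, -2.83 for THBS1, -3.25 for THBS2, -1.60 for POSTN and -1.83 for FBN1, and 1.07 for SPP1. Between resistant 2 and parental cells it was -0.56 for FN1, -1.27 for TNC, -3.29 for THBS1, -3.52 for THBS2, -1.58 for POSTN and -1.59 for FBN1. Between resistant 1 and resistant 2 it was -1.80 for SPARC and 0.70 for SPP1. FBN1 rose in parental cells and fell in both resistant populations, and THBS1 rose in parental cells and fell in resistant 2, while its response in resistant 1 was not called (adjusted p = 0.388 in limma). In addition, TNC, SPARC, THBS2 and POSTN were at or near 0 reads in parental cells with DMSO.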

How the results depend on the processing

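Of 2092 values of single members under another setting, 2015 kept their side of the threshold, 36 lost the call and 41 gained one. Among values called in either setting, 0 reversed direction. Changes of sign in values called in neither setting were not counted. A stricter minimum probability for the restored values left THBS1, SPP1 and FBN1 as the tested members. Then 3 were called for resistant 1 and 3 for resistant 2 against parental cells under treatment, 1 between the resistant populations, 3 in the parental response and 2 in that of resistant 2, and for response differences 3 (resistant 1 against parental), 2 (resistant 2 against parental) and 1 (resistant 1 against resistant 2). With the compared groups alone 2 members were called in the response of resistant 2, and with the replicate block added, a setting chosen after seeing the data, 5 in that of resistant 1. Leaving out 1 library gave 6 to 7 called members for resistant 1 and 9 to 9 for resistant 2 against parental cells with DMSO, 8 to 8 and 7 to 7 with treatment, and 6 to 7 (DMSO) and 4 to 6 (treatment) between the resistant populations. The ranges against parental cells describe contrasts on which the members were chosen and say nothing of stability. For responses it gave 1 to 4 in resistant 1, 3 to 5 in resistant 2 and 7 to 7 in parental cells, and for their differences 7 to 7, 5 to 7 and 1 to 2 in the order above. With the replicate block 7 members were called between the resistant populations with DMSO, 3 in the response of resistant 1 and 5 in that of resistant 2. The block also gave a call for SPP1 between the responses of resistant 2 and parental cells (0.365, limma, adjusted p = 0.0371). It changed no other call beyond those given beside the results.

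Over all genes, 4914 were called in the response of resistant 1 and 8946 with the block and these groups alone. In that of resistant 2 they were 3304, with 1448 for the groups alone and 5265 with the block added. Between those responses 920 genes were called by limma and 594 by edgeR. Under the stricter minimum, which leaves 9666 restored genes to test, counts fell with the genes tested, to 6618 (12157 before) for resistant 1 and 7070 (13090) for resistant 2 against parental cells under treatment, 5871 (10626) between them, 2271, 1717 and 6145 (11968) for the responses of resistant 1, resistant 2 and parental cells, and 4053 (8266), 4563 (9227) and 260 for their differences. Genes near 0 limit the CPM comparisons, and the restored table limits them to the genes restored. The cause of the changes was not tested.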
